A study of Mus musculus with 21 samples.

Results

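Editing of Prrx1 was compared between wound-healing fibroblasts and mouse embryonic fibroblasts (MEF), to find which genes responded alike in both cell types and which did not. The comparison used 12 of the 21 fibroblast cultures sequenced in the study, chosen by their labels: 3 WT MEF, 3 sgPrrx1 MEF, 3 WT wound-healing fibroblast and 3 sgPrrx1 wound-healing fibroblast cultures. For each gene, the sgPrrx1 effect in a type is the log2 fold change of sgPrrx1 over WT cultures. The difference between types is the effect in wound-healing fibroblasts minus the effect in MEF. A negative difference therefore means that a gene went lower, relative to its own WT cultures, in wound-healing fibroblasts than in MEF.

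MEF came from C57BL/6 embryos at embryonic days 10 to 13, and wound-healing fibroblasts from the dorsal wound of C57BL/6 mice on day 10 after wounding. All 12 cultures were immortalised with the papillomavirus genes E6 and E7 and grown in DMEM with 10% FBS, so WT cultures carried E6/E7 too. sgPrrx1 cells had received CRISPR/Cas9 with a guide RNA against Prrx1, and the labels name cells with the control guide sgNS as WT. For MEF the labels also describe WT cells as taken from WT embryos, and whether the WT MEF carried sgNS is not certain. The other 9 cultures, used only for the effects in MMTV-CAF and in 1 alternative fit, were 3 MEF cultures labelled KI_PRRX1 (C57BL/6) and 3 WT and 3 sgPrrx1 cultures of MMTV-CAF, fibroblasts of breast tumours (FVB/NJ). The number of animals or lines behind the 3 cultures of a group is not given in the sources used here, and ages of mice are given only as a general range. The p-values below therefore measure the spread between these cultures, which may be technical. Total counts per culture ran from 73727411 to 88418420 in WT MEF (median 73889673), from 72754401 to 80605793 in sgPrrx1 MEF (74489319), from 81418082 to 91588690 in WT wound-healing fibroblasts (86119453) and from 69588655 to 86517644 in sgPrrx1 wound-healing fibroblasts (83170500). Levels are given as CPM (counts scaled to 1e+06 per culture) after TMM scaling, in the order of the replicate numbers.

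Prrx1 encodes a paired-related homeodomain transcription factor of limb and craniofacial mesenchyme, and its close paralog Prrx2 is expressed in much of the same tissue. Myofibroblasts are contractile fibroblasts that appear in healing wounds, make smooth muscle actin and lay down collagen-rich matrix, in large part under TGF-beta. Fibroblasts also keep a record of body position in their Hox genes, and many cultured lines express interferon-stimulated genes at a low tonic level.

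Prrx1 (RefSeq span chr1:163245119-163315145 in GRCm38.p6, the build of all spans given here) was lower in the sgPrrx1 cultures of both types, and more so in wound-healing fibroblasts. Its level was 190.3, 164 and 179.8 CPM in WT MEF and 122, 92.4 and 137 CPM in sgPrrx1 MEF. In the wound cultures it was 147, 143 and 153 CPM in WT and 64.5, 63.9 and 64.6 CPM in sgPrrx1 wound-healing fibroblasts. The sgPrrx1 and WT cultures did not overlap in either type, which was also true of 53.2% of all genes tested in MEF and 78.5% in wound-healing fibroblasts. Prrx1 fell by 0.60 ± 0.11 (SE) on the log2 scale in MEF (edgeR adjusted p = 0.00102) and by 1.20 ± 0.12 in wound-healing fibroblasts (edgeR adjusted p = 4.38e-06). The difference between types was −0.60 ± 0.16 (edgeR adjusted p = 0.00787). A gene-level count does not show whether the transcripts that were left could still encode the protein. Prrx2 fell by 0.38 in MEF and by 0.39 in wound-healing fibroblasts, with a difference of −0.01 (95% interval −0.21 to 0.19) that was not called.

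The cultures were checked against cell type markers. All 14 fibroblast markers were listed and tested, led by Vim, the mesenchymal intermediate filament, and their summed level was 13302 to 13576 CPM in WT MEF, 10686 to 12193 in sgPrrx1 MEF, 9649 to 9708 in WT wound-healing fibroblasts and 3741 to 3794 in sgPrrx1 wound-healing fibroblasts. Of the fibroblast markers, 9 fell in both types (64.3%, against 10.4% of all genes tested), and Lum was at 0 in the sgPrrx1 wound-healing fibroblasts. Epithelial markers summed to 18 to 28 CPM in MEF and 55.3 to 70.1 CPM in wound-healing fibroblasts, mostly Krt19, with Esrp1 and Ovol1 at 0 in all 12 cultures. Macrophage and leukocyte markers summed to 14.8 to 24.4 CPM, mostly Cd14, with Adgre1, Cd52 and Tyrobp at 0 throughout. Endothelial markers summed to at most 12.9 CPM in MEF, but to 295 to 300.1 CPM in WT and 144 to 149.8 CPM in sgPrrx1 wound-healing fibroblasts, nearly all of it Kdr, a VEGF receptor, while Tie1 and Sox17 were at 0. Myf5, Pax7, Sox10 and Tyr, which define muscle precursors, glia and melanocytes, were at 0 in all 12 cultures. Schwann and melanocyte markers summed to 3.32 to 5.79 CPM per culture, led by Mitf, and 5 of these 12 markers were at 0 throughout. Skeletal muscle markers summed to 7.56 to 8.48 CPM in WT and 31.7 to 32.2 CPM in sgPrrx1 wound-healing fibroblasts, of which Tnnt2 gave 7.56 and 31.1 CPM on average, and cartilage markers to 18.8 to 21.3 CPM in WT and 33.5 to 34.9 CPM in sgPrrx1 MEF, of which Sox9 gave 17.1 and 33.7 CPM. In such bulk RNA, fewer cells of a kind and less RNA per cell cannot be told apart.

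The sgPrrx1 effect differed between the 2 types for most genes that passed the filter on low counts. Of 14354 genes tested, 8465 (59.0%) passed the threshold in wound-healing fibroblasts and 7882 (54.9%) in MEF, at an edgeR adjusted p under 0.05. The difference between types was called for 8323 genes (58.0%), 4182 of them lower and 4141 higher in wound-healing fibroblasts. Scaling by library totals alone gave 3032 lower and 4988 higher, and moved the median difference of all genes from 0.00 to 0.14. A difference of at least 2-fold was called for 2778 genes (19.4%), 982 lower (6.84%) and 1796 higher (12.5%) in wound-healing fibroblasts. Within a type, 6.83% of genes were lower and 7.71% higher by at least 2-fold in wound-healing fibroblasts, and 9.63% lower and 2.03% higher in MEF. Cultures of one group varied less among wound-healing fibroblasts, with a median SD of log2 CPM of 0.052 in WT and 0.049 in sgPrrx1, than among MEF, with 0.139 and 0.127. The edgeR fit shared its estimate of spread between types. It called 4330 genes lower and 4135 higher in wound-healing fibroblasts, and 4060 and 3822 in MEF. With limma-voom and weights per group, these counts were 5581 and 5266 in wound-healing fibroblasts, and 3207 and 3059 in MEF. Counts per type thus depended on the test, and the shares called in wound-healing fibroblasts alone or MEF alone below rest on edgeR.

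Among the 8323 genes with a called difference, 2568 (30.9%) changed in opposite directions, 2364 (28.4%) were called in wound-healing fibroblasts alone and 1995 (24.0%) in MEF alone. A further 1162 (13.96%) changed in the same direction by unequal amounts, and 234 (2.81%) were called in neither type on its own. Genes that changed in the same direction numbered 2545, whether or not their sizes differed. Of these, 1489 were lower in both types (10.4% of genes tested). They made up 34.4% of the genes lower in wound-healing fibroblasts, where 28.3% of all genes tested were lower in MEF. They were 36.7% of the genes lower in MEF, where 30.2% of all genes tested were lower in wound-healing fibroblasts. The 1056 higher in both (7.36% of genes tested) made up 25.5 and 27.6%. Those shares lay below the 26.6% of all genes tested that were higher in MEF and the 28.8% higher in wound-healing fibroblasts. Across the 14354 genes, the effects in the 2 types had a Pearson r of 0.0757 and a Spearman rho of −0.00112, given as a description since genes are not independent. With a change of at least 2-fold in each type, 368 genes were lower in both (2.56% of genes tested) and 52 were higher in both (0.362%). In the opposite directions, 275 were higher in wound-healing fibroblasts and lower in MEF (1.92%), and 35 were the other way round (0.244%). Asking for 10 counts in every culture left 196 lower and 22 higher in both, and 132 and 15 in the opposite directions.

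**Figure D1:**
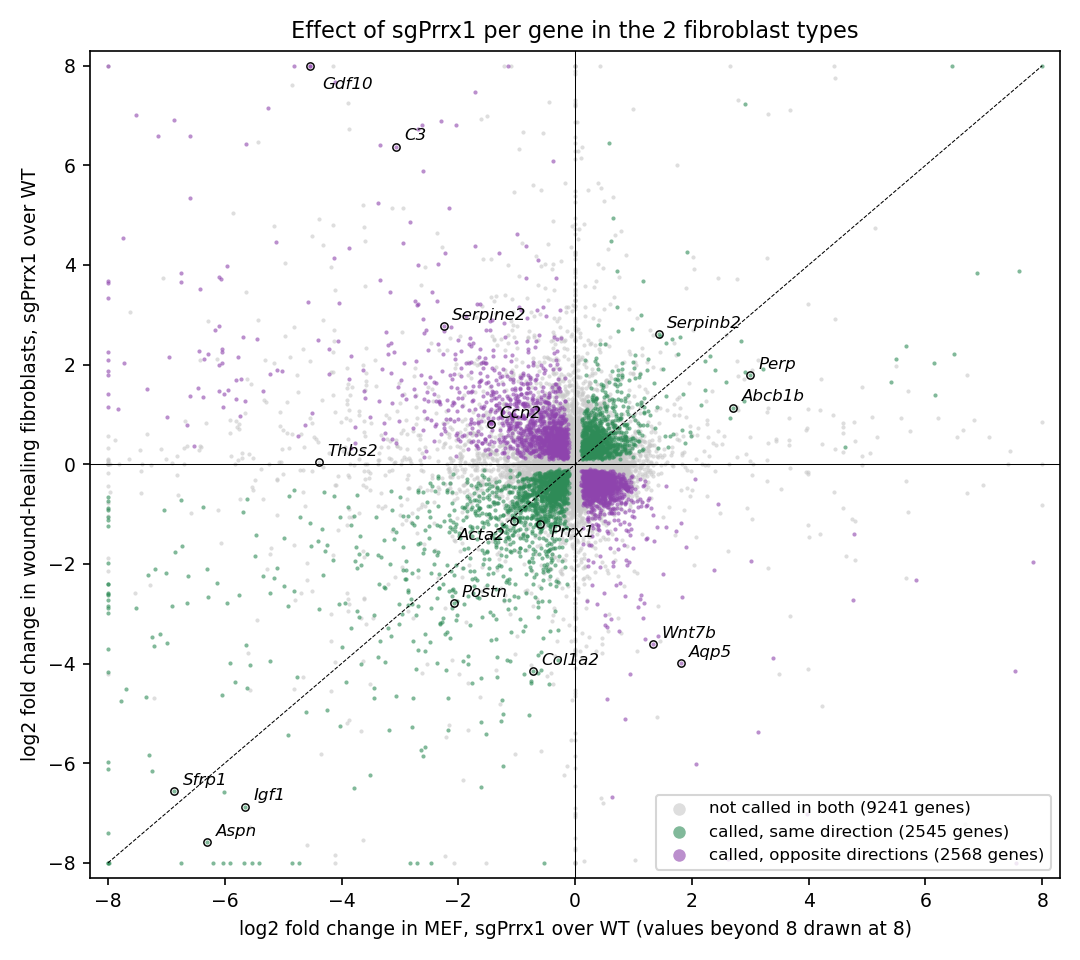
Each point is one of the 14354 genes tested, placed by its sgPrrx1 effect in MEF (x axis, log2) and in wound-healing fibroblasts (y axis, log2), with effects beyond 8 drawn at 8. Green points changed in the same direction in both types (2545 genes), purple points in opposite directions (2568), grey points were not called in both, and the dashed line marks equal effects. Igf1, Aspn and Sfrp1 lie far down in both types, and Serpine2, C3 and Gdf10 lie up in wound-healing fibroblasts and down in MEF.

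By the rule for named genes, the shared losses described here were Sfrp1, Aspn, Fbln7, Igf1, Itga11 and Svep1. Of these, Sfrp1, Fbln7 and Itga11 reached the mean of 5 CPM asked for only through the wound cultures, and Aspn only through MEF. Igf1 (chr10:87858265-87937047), a growth factor that fibroblasts supply to neighbouring cells, stood at 9.77, 10.5 and 12.7 CPM in WT MEF and 0.230, 0.0863 and 0.328 CPM in sgPrrx1 MEF. In the wound cultures it stood at 14.6, 15.4 and 15.1 CPM in WT and 0.199, 0.0747 and 0.106 CPM in sgPrrx1 wound-healing fibroblasts. It fell by 5.65 ± 0.29 on the log2 scale in MEF and 6.87 ± 0.30 in wound-healing fibroblasts (edgeR adjusted p = 4.55e-08 and 7.55e-09), while the difference of −1.23 was called (edgeR adjusted p = 0.0483) but lost its call without any 1 of 9 of the 12 cultures, and was −0.76 (edgeR adjusted p = 0.234) without sgPrrx1 MEF replicate 3. Svep1, a large extracellular matrix protein, fell from means of 65.4 to 1.33 CPM in MEF and from 32.5 to 1.43 CPM in wound-healing fibroblasts. Aspn, a small proteoglycan that binds collagen and TGF-beta, fell from 23.8 to 0.299 CPM in MEF and from 5.50 to 0.0308 CPM in wound-healing fibroblasts. Its difference of −1.29 was not called. Without sgPrrx1 wound-healing fibroblast replicate 3 that group is at 0, and the fitted difference, then called, depends on the prior count and is no bound. Itga11, the collagen-binding integrin alpha 11, fell from 6.57 to 0.249 CPM in MEF and from 13.6 to 0.0363 CPM in wound-healing fibroblasts, a larger fold there (difference −3.83 ± 0.61, edgeR adjusted p = 2.47e-04). Sfrp1, a secreted Wnt antagonist, stood at 52.8, 50.5 and 51.9 CPM in WT and 0.630, 0.459 and 0.555 CPM in sgPrrx1 wound-healing fibroblasts. In MEF it was low from the start, at 1.54, 0.951 and 1.249 CPM in WT against 0, 0 and 0.0252 CPM in sgPrrx1 cultures. Fbln7 was at 0 in all 3 sgPrrx1 MEF cultures and at 5.42, 5.59 and 4.92 CPM in WT MEF, at least 128-fold lower against a floor of 3 counts per library. In wound-healing fibroblasts Fbln7, a fibulin of the matrix, fell from 20.1 to 0.296 CPM.

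Proteoglycan, collagen and matricellular genes were often lower in both types, by amounts that differed from gene to gene. Of 11 small leucine-rich proteoglycans tested, 7 were lower in both types, against 10.4% of all genes tested. Their median effect was −2.36 in MEF and −2.70 in wound-healing fibroblasts (−2.19 with Lum and Fmod, at 0 in these sgPrrx1 cultures, set to their bounds), where the median of all genes was 0.00 and −0.01. Ogn, osteoglycin, stood at 58.1, 60.8 and 53.03 CPM in WT MEF and 3.97, 3.80 and 4.81 CPM in sgPrrx1 MEF. Its level in the wound cultures was 75.1, 73.6 and 78.1 CPM in WT and 18.2, 20.7 and 20.3 CPM in sgPrrx1 wound-healing fibroblasts, and the smaller fall there gave a difference of 1.83 ± 0.12 (edgeR adjusted p = 3.22e-07). Bgn, biglycan, was the most abundant of the group and fell by 1.06 in MEF and 1.08 in wound-healing fibroblasts (95% interval of the difference −0.14 to 0.09).

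Of 11 fibrillar collagen genes, 6 were lower in both types (54.5%, against 10.4% of all genes tested): Col1a1, Col1a2, Col3a1, Col5a1, Col5a2 and Col11a1. The chains of type I collagen parted in wound-healing fibroblasts. Col1a1 stood at 2910.4, 2976 and 3045 CPM in WT MEF and 1714, 1713 and 1605 CPM in sgPrrx1 MEF. In wound-healing fibroblasts Col1a1 was at 3356, 3229.9 and 3391 CPM in WT and 1237, 1219 and 1243 CPM in sgPrrx1 wound-healing fibroblasts. Col1a2, the partner chain of the same trimer, stood at 2429, 2401 and 2427 CPM in WT MEF and 1510.2, 1456 and 1423 CPM in sgPrrx1 MEF. In wound-healing fibroblasts Col1a2 dropped from 1893, 1827 and 1929 CPM to 107, 105 and 105 CPM. Its effect was −0.73 ± 0.038 in MEF and −4.16 ± 0.043 in wound-healing fibroblasts, a difference of −3.43 (edgeR adjusted p = 1.79e-11), against effects of −0.83 and −1.43 and a difference of −0.60 ± 0.057 for Col1a1. Lox, which crosslinks collagen and elastin, followed the pattern of Col1a2, with −0.64 in MEF, −2.86 in wound-healing fibroblasts and a difference of −2.21 ± 0.15 (edgeR adjusted p = 4.11e-07). Col11a1 did the reverse, falling from 23.8 to 0.215 CPM in MEF but only from 38.8 to 23.6 CPM in wound-healing fibroblasts. Of 20 genes for collagen crosslinking and folding, 11 were lower in both (55.0%), 1 (Pcolce2) was higher in both and 3 (Plod2, P4ha3 and Bmp1) were higher in wound-healing fibroblasts and lower in MEF, against 9.24% of all genes tested.

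Of 13 matricellular genes, 8 were lower in both types (61.5%, against 10.4% of all genes tested). Postn (chr3:54359267-54391041), periostin, a secreted protein that fibroblasts make after injury, stood at 302, 316 and 287 CPM in WT MEF and 72.3, 70.0 and 71.6 CPM in sgPrrx1 MEF. Among wound cultures it stood at 102, 103 and 105 CPM in WT and 15.3, 14.8 and 14.8 CPM in sgPrrx1 wound-healing fibroblasts. Its effects were −2.08 and −2.78, and the difference of −0.70 ± 0.064 was called (edgeR adjusted p = 3.52e-06). Tnc, tenascin C, fell by 1.27 in MEF and 1.35 in wound-healing fibroblasts, with no called difference (95% interval −0.29 to 0.13). Sparc, which binds collagen, fell by 0.72 and 1.97, and the difference was called. Ccn2 and Fn1 were the 2 members that went apart, and they are described with the opposite changes. Of 14 fibroblast markers named above, Pdgfra fell more in MEF (−3.11 against −1.50), while Pdgfrb (−0.84 against −2.57) and Thy1 (−0.59 against −4.13) fell more in wound-healing fibroblasts, each with a called difference.

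Contractile genes of the myofibroblast held a group that was lower in both types. Of 24 tested, 8 were in it (33.3%, against 10.4% of all genes tested): Acta2, Actg2, Tagln, Cnn1, Cnn2, Myl9, Lmod1 and Des. A difference was called for 15 (62.5%), near the 58.0% of all genes tested. Acta2 (chr19:34240336-34255585), the smooth muscle actin used to identify myofibroblasts, stood at 4578, 4405 and 3526 CPM in WT MEF and 2299, 2020.2 and 1716 CPM in sgPrrx1 MEF. In wound-healing fibroblasts it stood at 1606, 1674 and 1603 CPM in WT and 748, 736 and 731 CPM in sgPrrx1 wound-healing fibroblasts. The groups did not overlap in either type, as for 53.2% of all genes tested in MEF and 78.5% in wound-healing fibroblasts. The fall was 1.05 ± 0.11 in MEF and 1.14 ± 0.11 in wound-healing fibroblasts (edgeR adjusted p = 1.13e-05 and 3.78e-06). The difference of −0.09 was not called, with a 95% interval of −0.42 to 0.24. The 4 genes Myh9, Actn4, Pdlim7 and Mylk, of myosin or actin filaments, rose in wound-healing fibroblasts and fell in MEF (16.7%, against 9.24% of all genes tested), and Tpm2 and Vcl went the other way (8.33%, against 8.65%). Mylk, the kinase that activates smooth muscle myosin, stood at 17.8, 14.9 and 14.3 CPM in WT MEF and 1.21, 1.12 and 1.10 CPM in sgPrrx1 MEF, whereas in the wound cultures it was near 0.858 CPM in WT and 1.16 CPM in sgPrrx1 cultures, an effect of 0.43 that became 0.37 (edgeR adjusted p = 0.053) without WT replicate 2. Tpm2, a tropomyosin, rose by 0.39 in MEF and fell by 0.74 in wound-healing fibroblasts, a difference of −1.13 ± 0.10 (edgeR adjusted p = 2.95e-06). The median effect of the 24 genes was −0.25 in MEF and −0.35 in wound-healing fibroblasts. Pericyte and smooth muscle markers share Myh11, Cnn1, Lmod1 and Des with these genes. They summed to 343 to 409 CPM in WT MEF, 221 to 268 in sgPrrx1 MEF, 110.2 to 112 in WT wound-healing fibroblasts and 90.3 to 92.7 in sgPrrx1 wound-healing fibroblasts. Of 9 such markers tested, 8 were lower in MEF (88.9%, against 28.3% of all genes tested). In wound-healing fibroblasts 4 were lower and 2 higher (44.4 and 22.2%, against 30.2 and 28.8%), and 4 of the 9 markers were lower in both types (44.4%, against 10.4%). Cspg4, the most abundant of them over the 12 cultures, averaged 275 CPM in WT and 199.9 CPM in sgPrrx1 MEF but only 27.6 and 8.20 CPM in WT and sgPrrx1 wound-healing fibroblasts. The part of these markers in the contractile result was not tested.

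The 250 bases before the transcript start of Acta2 in the RefSeq promoter table are shown because they hold the letters of a TEAD site, CATTCC read on both strands, whose 1 match is in capitals (here as GGAATG). They lie at chr19:34255374-34255623 on the minus strand of GRCm38.p6, from RefSeq, and are written 5′ to 3′ in the direction of transcription. That start lies inside the outer bounds of the gene, so the window overlaps the gene span given above.
Acta2: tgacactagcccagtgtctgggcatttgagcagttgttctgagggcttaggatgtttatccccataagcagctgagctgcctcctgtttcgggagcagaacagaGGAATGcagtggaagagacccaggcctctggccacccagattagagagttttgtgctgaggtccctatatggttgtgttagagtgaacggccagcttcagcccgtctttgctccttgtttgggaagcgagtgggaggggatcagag
Such a match was found in 10 of 21 contractile genes with a promoter in the RefSeq table (47.6%) and in 1202 of 11214 genes tested (10.7%), and also in 35 of 255 genes lower in both types by at least 2-fold (13.7%) and in 9 of 40 higher in both (22.5%). The homeodomain core TAATTA, which is its own reverse complement, was found in 5 of the 255 genes lower in both types by at least 2-fold (1.96%), in 10 of 202 that were higher in wound-healing fibroblasts and lower in MEF by at least 2-fold each (4.95%) and in 2.33% of genes tested. The 4 motifs searched were counted separately, on both strands, so that a promoter may hold more than 1 of them. A match describes the letters in this window and is no evidence of binding.

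Interferon-stimulated genes, an antiviral programme that interferons switch on, were lower in both types for 29 of 42 genes tested, against 10.4% of all genes tested. The fall was larger in MEF: 36 of 42 fell there (85.7%, against 28.3% of all genes tested) and 31 in wound-healing fibroblasts (73.8%, against 30.2%), with a median effect of −1.68 (−1.66 with genes at 0 in a group set to their bounds) and −0.66. The difference was called for 35 of 42 genes, 29 higher and 6 lower in wound-healing fibroblasts, against 28.8 and 29.1% of all genes tested. With library totals alone, 24 were lower in both types. Usp18, which restrains interferon receptor signalling, stood at 11.02, 9.70 and 9.06 CPM in WT MEF and 0.547, 0.316 and 0.151 CPM in sgPrrx1 MEF. In the wound cultures Usp18 was at 54.0, 49.2 and 51.6 CPM in WT and 33.0, 33.5 and 32.8 CPM in sgPrrx1 wound-healing fibroblasts. Its effects were −4.90 ± 0.23 in MEF and −0.64 ± 0.16 in wound-healing fibroblasts, a difference of 4.26 (edgeR adjusted p = 3.43e-07). Irf9, a transcription factor of the interferon response, fell by 1.82 and 0.68 and its partner Stat2 by 1.42 and 0.56, in MEF and wound-healing fibroblasts. Irf7, the factor that amplifies the response, was among the genes called in MEF alone, at 16.1, 16.9 and 17.3 CPM in WT and 1.65, 1.67 and 1.56 CPM in sgPrrx1 MEF, and at 28.2, 26.1 and 24.6 and 26.5, 27.7 and 29.0 CPM in the wound cultures, where its effect of 0.08 became 0.21 (edgeR adjusted p = 0.0193) with library totals alone. Isg15, a ubiquitin-like protein, was 1 of the 6 with a lower value in wound-healing fibroblasts for the difference, at 36.9, 37.2 and 44.8 CPM in WT MEF and 30.4, 32.2 and 31.0 CPM in sgPrrx1 MEF and 103, 102 and 98.4 CPM in WT and 41.8, 41.9 and 44.8 CPM in sgPrrx1 wound-healing fibroblasts.

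Promoters of 3 of these genes are shown for the letters of the interferon-stimulated response element (GAAA, any 2 bases and GAAA again), with matches on either strand in capitals (overlapping matches are joined). All are the 250 bases before the transcript start in the RefSeq promoter table (GRCm38.p6), written in the direction of transcription, and the window of Ifit3 lies inside the outer bounds of that gene. Isg15 lies on the minus strand at chr4:156200819-156201068 with 3 matches, Ifit3 on the plus strand at chr19:34583279-34583528 with 2, and Bst2 on the minus strand at chr8:71537473-71537722 with 2.
Isg15: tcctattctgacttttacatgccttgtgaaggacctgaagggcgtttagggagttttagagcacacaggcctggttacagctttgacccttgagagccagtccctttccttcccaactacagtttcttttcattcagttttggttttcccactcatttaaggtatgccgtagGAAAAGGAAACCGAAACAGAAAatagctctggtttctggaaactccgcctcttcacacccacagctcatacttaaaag
Ifit3: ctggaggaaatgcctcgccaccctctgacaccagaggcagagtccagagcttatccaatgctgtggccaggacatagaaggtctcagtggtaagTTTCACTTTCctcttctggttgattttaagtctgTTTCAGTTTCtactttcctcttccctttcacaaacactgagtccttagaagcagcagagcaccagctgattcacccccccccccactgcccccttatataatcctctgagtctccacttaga
Bst2: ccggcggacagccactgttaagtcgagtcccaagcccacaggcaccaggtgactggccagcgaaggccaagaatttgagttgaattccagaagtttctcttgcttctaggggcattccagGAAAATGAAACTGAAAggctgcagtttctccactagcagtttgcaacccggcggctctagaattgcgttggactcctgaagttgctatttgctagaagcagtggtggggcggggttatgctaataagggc
The letters were found in 15 of the 30 interferon-stimulated genes that have a promoter in the table (50.0%), in 290 of 11214 genes tested (2.59%) and in 821 of all 27025 promoters (3.04%). Of the 15 genes with a match, 12 were lower in both types, with medians of −2.09 in MEF and −0.76 in wound-healing fibroblasts. Of the 15 without, 7 were lower in both, with medians of −1.06 and −0.31. Ifit3, which restricts viral RNA, fell by 2.60 in MEF and 1.78 in wound-healing fibroblasts, and Bst2, which tethers virions to the cell, by 2.09 and 0.20, the latter not called without sgPrrx1 wound-healing fibroblast replicate 1 (−0.16, edgeR adjusted p = 0.085) or replicate 2 (−0.18, edgeR adjusted p = 0.0616) or with library totals alone (−0.07, edgeR adjusted p = 0.329). Genes for antigen presentation by MHC class I, which interferon also induces, were lower in wound-healing fibroblasts for 12 of 18 (66.7%, against 30.2% of all genes tested) and in MEF for 6 (33.3%, against 28.3%), and the difference was called lower for 9 and higher for 3 (29.1 and 28.8% of all genes tested). H2-T23, a nonclassical class I gene, had effects of −0.17 in MEF and −2.06 in wound-healing fibroblasts.

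**Figure D2:**
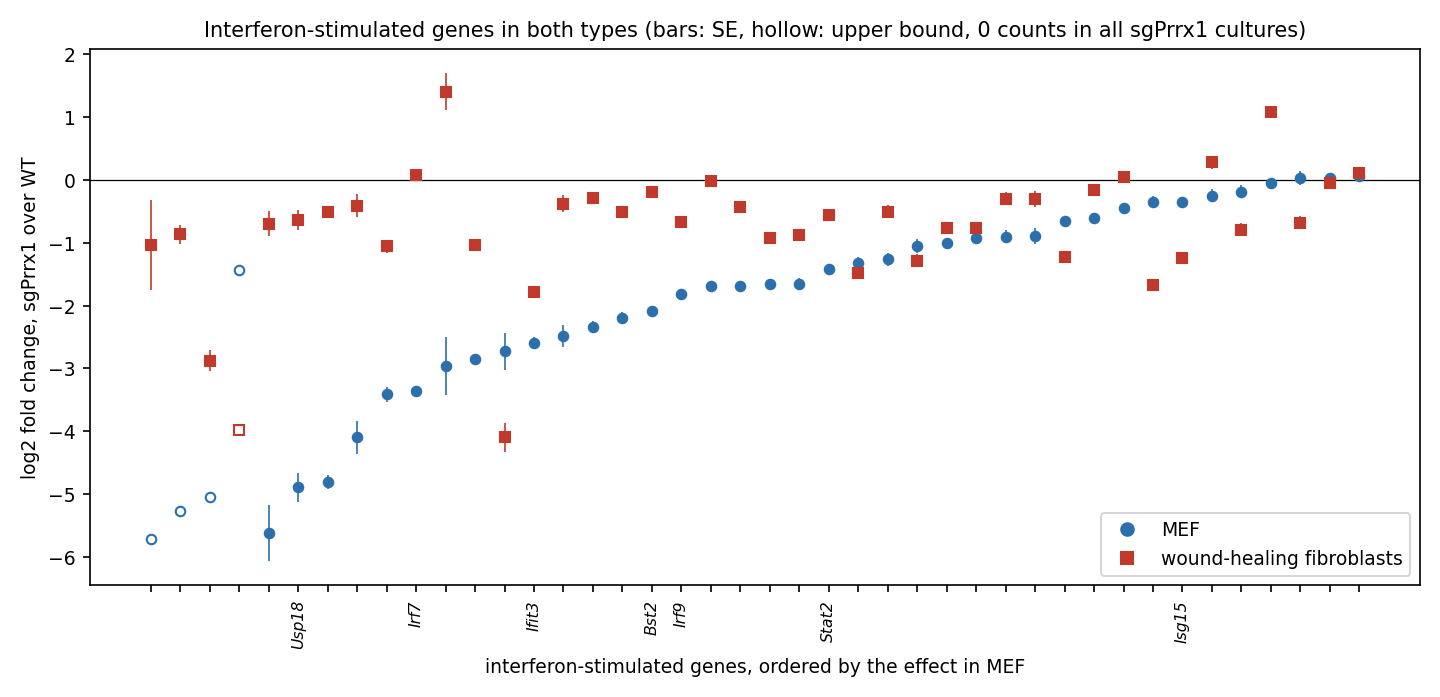
The sgPrrx1 effect (y axis, log2 fold change over WT) of the 42 interferon-stimulated genes tested is drawn for MEF (circles) and wound-healing fibroblasts (squares), ordered by the effect in MEF, with names under those described in the text. Bars are standard errors, and hollow symbols are upper bounds for genes with 0 counts in all sgPrrx1 cultures. Most genes lie below 0 in both types, and the 36 genes lower in MEF mostly lie below their wound values.

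Genes of sterol synthesis and uptake fell together in both types. Of 23 tested, 19 were lower in both, against 10.4% of all genes tested, with medians of −0.60 in MEF and −0.75 in wound-healing fibroblasts. Mvd, a decarboxylase of the mevalonate pathway, stood at 55.7, 57.7 and 54.0 CPM in WT MEF and 32.3, 27.95 and 25.2 CPM in sgPrrx1 MEF. In the wound cultures it stood at 51.2, 50.6 and 49.4 CPM in WT and 23.7, 23.7 and 24.3 CPM in sgPrrx1 wound-healing fibroblasts. Mvd fell by 0.97 ± 0.074 in MEF and 1.08 ± 0.075 in wound-healing fibroblasts (edgeR adjusted p = 1.24e-06 and 2.93e-07), with a 95% interval of the difference of −0.33 to 0.13. Mvk, a kinase of the same pathway, fell by 0.98 in MEF and 0.92 in wound-healing fibroblasts. The other 4 members did not fall in both. Of these, Srebf2, the transcription factor of the pathway, fell by 0.40 in MEF and had an effect of 0.16 in wound-healing fibroblasts that was not called in 5 of 6 fits without 1 wound culture. Cyp51, a lanosterol demethylase, had an effect of −0.04 in MEF that was not called and fell by 0.86 in wound-healing fibroblasts.

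Few genes rose strongly in both types. The 6 named by the rule were Prl2c2, Dynap, Perp, Epb41l4b, Serpinb2 and Ak4. Of these, Dynap and Epb41l4b reached the mean of 5 CPM asked for only through MEF. Perp (chr10:18845071-18857073), a p53 target of desmosomes and cell death, stood at 6.65, 4.60 and 4.43 CPM in WT MEF and 45.5, 43.0 and 36.3 CPM in sgPrrx1 MEF. Across the wound cultures it was at 29.5, 28.8 and 26.2 CPM in WT and 97.1, 97.9 and 97.8 CPM in sgPrrx1 wound-healing fibroblasts. It rose by 2.99 ± 0.14 in MEF and 1.79 ± 0.13 in wound-healing fibroblasts, and the difference of −1.20 was called (edgeR adjusted p = 2.06e-04). Serpinb2, an inhibitor of plasminogen activators, went from 2.99, 2.95 and 2.33 to 7.60, 6.95 and 7.67 CPM in MEF. In wound-healing fibroblasts it went from 11.6, 11.9 and 12.7 to 76.3, 73.0 and 73.0 CPM, the larger rise (difference 1.19 ± 0.12). Ak4, a mitochondrial adenylate kinase, rose by 1.56 and 1.37 with no called difference. Dynap, a transmembrane protein, rose by 2.22 from 81.7 CPM in MEF and by 2.07 from only 0.302 CPM in wound-healing fibroblasts, and Epb41l4b, a FERM-domain protein, by 1.56 and 2.43, again from 0.0943 CPM in the wound cultures. Prl2c2, a proliferin of the prolactin family, rose by 2.84 and 2.48; its close paralogs may share reads with it. Of 30 genes of glycolysis and the hypoxia response, 8 were higher in both (26.7%, against 7.36% of all genes tested), among them Bnip3, a mitophagy receptor, at 1.18 in MEF and 1.15 in wound-healing fibroblasts. Adm, adrenomedullin, was 1 of the 2 that fell in both, by 2.18 and 5.33.

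Genes that rose in wound-healing fibroblasts and fell in MEF numbered 1326 (9.24% of genes tested), and the named ones were Rgs4, Gdf10, C3, Ms4a4d, Serpine2 and Speer3. Of these, Serpine2 was abundant in both types, while Rgs4, Gdf10, C3, Ms4a4d and Speer3 reached the mean of 5 CPM asked for only through the wound cultures, and their falls in MEF started from WT means of at most 3.55 CPM. Serpine2 (chr1:79794317-79858665), protease nexin 1, a secreted thrombin inhibitor, stood at 263, 259 and 242 CPM in WT MEF and 58.1, 52.8 and 50.2 CPM in sgPrrx1 MEF. In wound-healing fibroblasts it stood at 28.7, 28.02 and 28.4 CPM in WT and 194, 194 and 196 CPM in sgPrrx1 wound-healing fibroblasts. WT MEF and sgPrrx1 wound-healing fibroblasts were thus the 2 high groups. The effects were −2.25 ± 0.058 and 2.78 ± 0.059, and the difference was 5.02 ± 0.083 (edgeR adjusted p = 1.79e-11). C3, the central complement protein, went from 3.12, 3.49 and 3.14 to 0.374, 0.489 and 0.303 CPM in MEF and from 0.352, 0.236 and 0.268 to 24.0, 23.9 and 23.9 CPM in the wound cultures. Gdf10, a ligand of the TGF-beta family, went from 3.13, 3.72 and 3.79 to 0.144, 0.115 and 0.189 CPM in MEF and from 0.143, 0.298 and 0.151 to 65.7, 64.2 and 65.3 CPM in the wound cultures. Rgs4, which turns off G protein signalling, rose from a mean of 1.06 to 151 CPM in wound-healing fibroblasts, and fell from 1.11 CPM in MEF to a level of at most 0.0863 CPM in any culture. Ms4a4d was at 0 in all 3 sgPrrx1 MEF cultures, at least 16.7-fold lower than in WT MEF, and rose by 2.26 in wound-healing fibroblasts. Speer3, a rodent gene of the testis, rose from 5.04 to 34.1 CPM in wound-healing fibroblasts, and its close family members may share its reads. In MEF it was near 0 in every culture, at 0.460, 0.170 and 0.293 CPM in WT and 0, 0.101 and 0.101 CPM in sgPrrx1 cultures. Its fall in MEF of 2.13 (edgeR adjusted p = 0.00576) was not called by limma-voom (−2.70, limma adjusted p = 0.0762).

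**Figure D3:**
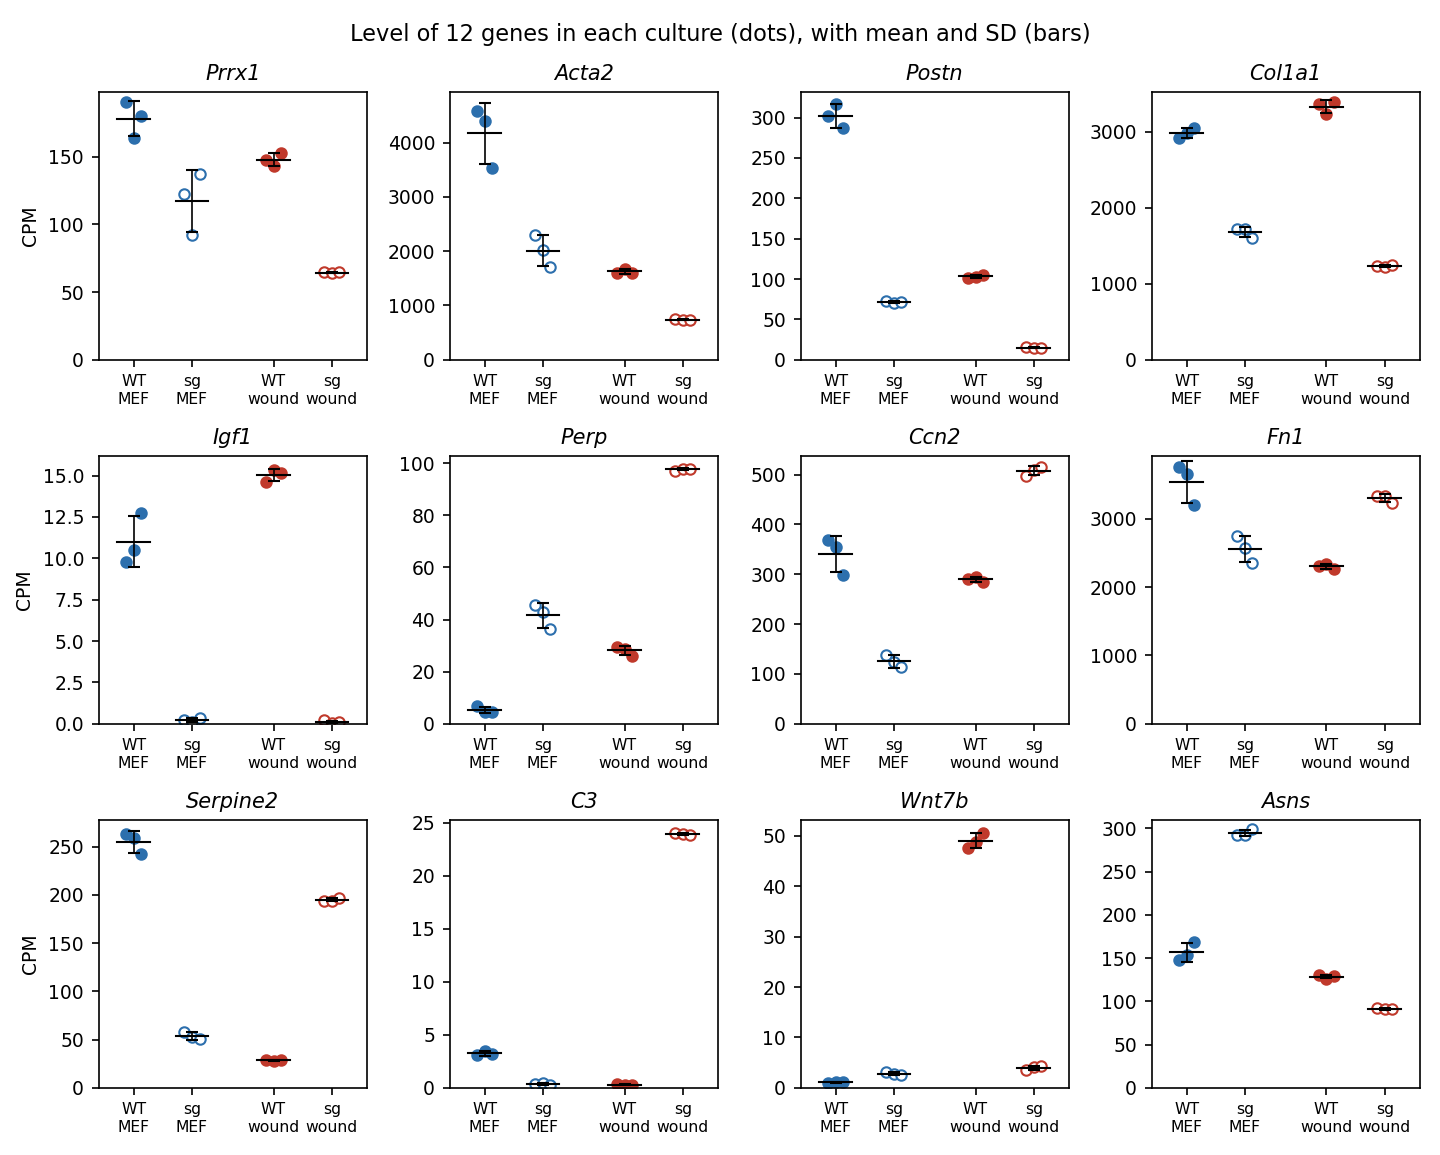
Levels of 12 genes in CPM (y axes, each from 0) are drawn for every culture, with filled dots for WT, open dots for sgPrrx1, blue for MEF and red for wound-healing fibroblasts. Horizontal bars are group means and whiskers are 1 SD (n = 3). Prrx1, Acta2, Postn, Col1a1 and Igf1 were lower and Perp higher in sgPrrx1 cultures of both types, Ccn2, Fn1, Serpine2 and C3 were higher in wound-healing fibroblasts and lower in MEF, and Wnt7b and Asns went the other way.

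TGF-beta pathway genes were divided between shared and opposite changes. Of 26 tested, 7 were lower in both (26.9%, against 10.4% of all genes tested), 1 was higher in both (3 with library totals alone) and 7 were higher in wound-healing fibroblasts and lower in MEF (26.9%, against 9.24%). Ccn2 (chr10:24595442-24598683), connective tissue growth factor and a standard target of TGF-beta and YAP, stood at 368, 354 and 299 CPM in WT MEF and 139, 125 and 113 CPM in sgPrrx1 MEF. In the wound cultures it stood at 289.8, 295 and 286 CPM in WT and 498, 509.8 and 516 CPM in sgPrrx1 wound-healing fibroblasts. The effects were −1.44 ± 0.084 and 0.81 ± 0.083, and the difference was 2.25 ± 0.12 (edgeR adjusted p = 5.27e-08). Fn1, fibronectin, fell by 0.47 in MEF and rose by 0.52 in wound-healing fibroblasts, a difference of 0.99 (edgeR adjusted p = 5.46e-06). The ligand Tgfb1 (−0.36 and 0.98), the co-receptor Eng (−2.01 and 0.91), the inhibitory Smad6 (−1.33 and 1.60) and the target Pmepa1 (−1.44 and 0.46) also fell in MEF and rose in wound-healing fibroblasts, with the effect in MEF given before that in wound-healing fibroblasts. The receptor Tgfbr2 fell in both, by 0.75 in MEF and 2.12 in wound-healing fibroblasts, and Smad3, which carries the signal to the nucleus, by 0.31 and 0.34 with no called difference. Smad7, the feedback inhibitor, rose in wound-healing fibroblasts alone (0.06 and 2.09).

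Of 22 basement membrane genes tested, 7 were higher in wound-healing fibroblasts and lower in MEF (31.8%, against 9.24% of all genes tested), among them Lama5, Lamb2, Lamc1, Hspg2, Agrn and Col18a1. Lamc1, the laminin chain shared by most laminin trimers, stood at 573, 525 and 429 CPM in WT MEF and 406, 376 and 356 CPM in sgPrrx1 MEF, and in the wound cultures at 161, 161 and 163 CPM in WT and 221, 220.2 and 218 CPM in sgPrrx1 wound-healing fibroblasts. Col4a1, a collagen IV chain, was the 1 member that did the opposite, rising by 0.63 in MEF and falling by 0.58 in wound-healing fibroblasts (difference −1.20 ± 0.078, edgeR adjusted p = 2.65e-07). Elastic fibre and microfibril genes gave a called difference for 17 of 18 (94.4%, against 58.0% of all genes tested), and 8 of the 18 fell in both (44.4%, against 10.4%). Fbln5 fell by 1.67 and 2.33, whereas Ltbp2, Ltbp3, Fbln2 and Fbn2 fell in MEF and rose in wound-healing fibroblasts, and Efemp1 rose by 0.95 in MEF and fell by 4.20 in wound-healing fibroblasts. Mmp13, a collagenase, was low throughout and went from 1.22 to 0.0720 CPM in MEF and from 0.129 to 1.245 CPM in wound-healing fibroblasts.

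Secreted inflammatory genes fell more often than they rose in MEF, while in wound-healing fibroblasts more rose than fell, unless genes near 0 in any group were dropped. Of 29 cytokine, chemokine and acute-phase genes tested, 16 were lower and 1 higher in MEF (55.2 and 3.45%, against 28.3 and 26.6% of all genes tested). With limma-voom, 12 were lower and 1 higher in MEF. Of the 29, 13 were at 0 in a group, and the median effect in MEF was −0.80, or −0.30 with such genes set to their bounds. In wound-healing fibroblasts 14 were higher (48.3%, against 28.8%) and 9 lower (31.0%, near the 30.2% of all genes tested). With at least 10 counts asked for in every culture, 15 genes were tested, and 6 were higher and 7 lower there. Cxcl1, a neutrophil chemokine, stood at 6.82, 7.99 and 6.75 CPM in WT MEF and 2.14, 3.21 and 2.81 CPM in sgPrrx1 MEF. In wound-healing fibroblasts it stood at 22.1, 23.7 and 22.8 CPM in WT and 113, 112 and 109 CPM in sgPrrx1 wound-healing fibroblasts, a difference of 3.69 ± 0.16 (edgeR adjusted p = 9.68e-09). Lif, a cytokine of the IL-6 family, had an effect of −0.30 in MEF and rose by 2.51 from a mean of 25.5 CPM in wound-healing fibroblasts. Ccl20 was at 0 in all 3 WT wound-healing fibroblast cultures and at 7.33, 7.49 and 6.01 CPM in the sgPrrx1 cultures, at least 198-fold higher. Cxcl12, which fibroblasts make in quantity to attract CXCR4-bearing cells, fell in both, by 1.37 and 1.55 (95% interval of the difference −0.35 to −0.02, not called after adjustment). Il1rn, an antagonist of IL-1, fell by 1.52 in MEF and from 40.6 to 0.951 CPM in wound-healing fibroblasts. Of 15 complement genes, 11 were lower in MEF (73.3%), while 7 were higher (46.7%) and 6 lower in wound-healing fibroblasts, and 5 were lower in both (33.3%, against 10.4% of all genes tested).

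**Figure D4:**
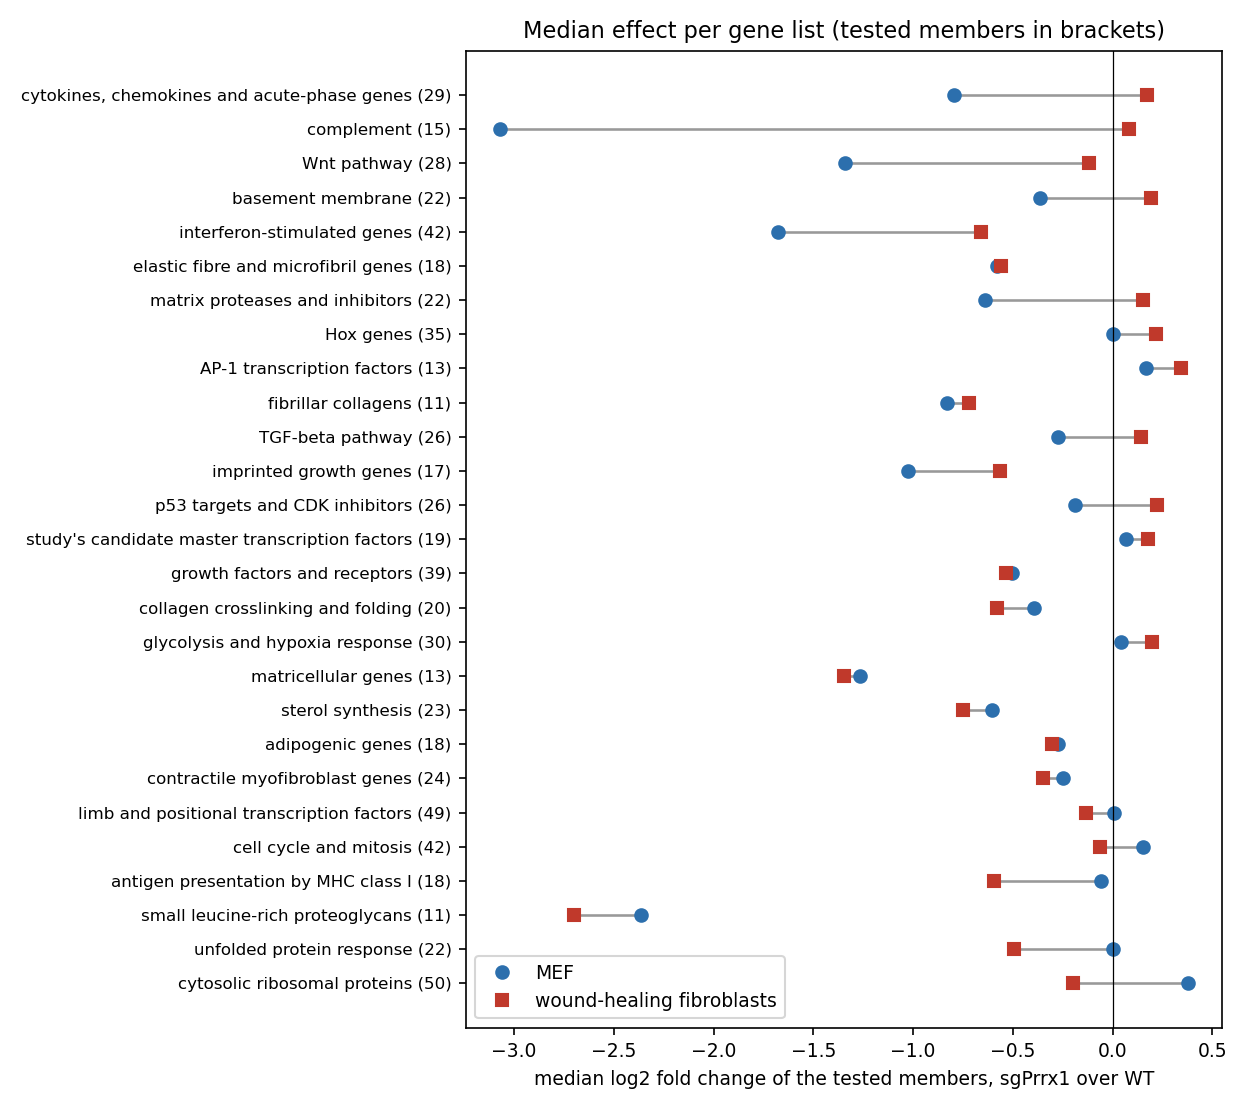
The median sgPrrx1 effect (x axis, log2 fold change over WT) of the tested members of each gene list is drawn for MEF (circles) and wound-healing fibroblasts (squares), joined by a line, with the number of tested members in brackets. Lists are ordered by the median of the members' differences between types. Small leucine-rich proteoglycans, matricellular and sterol genes lie left of 0 in both types, interferon-stimulated genes lie further left in MEF, and ribosomal proteins lie right of 0 in MEF and left of it in wound-healing fibroblasts.

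Genes that fell in wound-healing fibroblasts and rose in MEF numbered 1242 (8.65% of genes tested), or 699 with library totals alone. The named ones were Aqp5, Sema7a, Il1rl1, B3gnt3, Wnt7b and Itga6. Of these, Wnt7b reached the mean of 5 CPM asked for only through the wound cultures, and Sema7a and B3gnt3 only through MEF. Wnt7b (chr15:85535437-85581821), a secreted Wnt ligand, stood at 1.02, 1.08 and 1.17 CPM in WT MEF and 3.04, 2.78 and 2.47 CPM in sgPrrx1 MEF. In wound-healing fibroblasts, where it was far more abundant, it stood at 47.7, 48.9 and 50.7 CPM in WT and 3.57, 4.20 and 4.28 CPM in sgPrrx1 wound-healing fibroblasts. The effects were 1.33 ± 0.10 and −3.61 ± 0.092, with a difference of −4.95 ± 0.14 (edgeR adjusted p = 5.87e-10). Axin2, a general target of Wnt signalling, had effects of −0.43 in MEF and −3.34 in wound-healing fibroblasts (difference −2.91 ± 0.20, edgeR adjusted p = 4.58e-07). Il1rl1, the receptor of IL-33, went from 162, 144 and 123 to 361, 524 and 336 CPM in MEF and from 359, 364 and 356 to 74.0, 83.1 and 79.0 CPM in the wound cultures, and Il33 itself rose by 1.82 in MEF and fell by 2.67 in wound-healing fibroblasts. Itga6, the laminin-binding integrin alpha 6, rose from 60.0 to 212 CPM in MEF and fell from 31.0 to 13.8 CPM in wound-healing fibroblasts. Aqp5, a water channel, rose by 1.81 and fell by 3.99, Sema7a, a membrane-anchored semaphorin, by 1.90 and 1.67, and B3gnt3, a glycosyltransferase, by 1.36 and 1.54.

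Of 50 genes for cytosolic ribosomal proteins, 36 were higher in MEF and 25 lower in wound-healing fibroblasts, against 26.6 and 30.2% of all genes tested. Both held for 20, against 8.65% of all genes tested. The difference was called for 41, against 58.0% of all genes tested, and all 41 were lower in wound-healing fibroblasts. The median effects were 0.38 and −0.20, and with library totals alone they were 0.36 and −0.07, with 36 differences called lower and 1 higher. Genes lower in wound-healing fibroblasts numbered 17 with library totals alone, 38 with limma-voom and 33 with a replicate block. Those that were also higher in MEF numbered 16, 28 and 30 in these fits. Rps27a, a fusion of ubiquitin and a ribosomal protein, stood at 157, 197 and 278 CPM in WT MEF and 413, 518 and 515 CPM in sgPrrx1 MEF, and in the wound cultures at 1512, 1496 and 1451 CPM in WT and 1296, 1289 and 1339.8 CPM in sgPrrx1 wound-healing fibroblasts. Ribosomal protein genes have many processed pseudogenes that can share their reads. In the unfolded protein response, 17 of 22 genes were lower in wound-healing fibroblasts (77.3%, against 30.2% of all genes tested) and 6 in MEF (27.3%, near the 28.3% of all genes tested), and 14 differences were called lower (63.6%, against 29.1%). Hspa5, the chief chaperone of the endoplasmic reticulum, had an effect of 0.00 in MEF (95% interval −0.07 to 0.07) and fell by 0.74 ± 0.033 in wound-healing fibroblasts (edgeR adjusted p = 8.57e-09). Asns, asparagine synthetase, a target of ATF4, stood at 148, 153 and 168 CPM in WT MEF and 292, 293 and 299 CPM in sgPrrx1 MEF. Among wound cultures it was at 130.4, 126 and 129 CPM in WT and 92.7, 90.9 and 90.5 CPM in sgPrrx1 wound-healing fibroblasts, and its difference was −1.41 ± 0.07 (edgeR adjusted p = 3.49e-08). Trib3 and Herpud1, which stress also induces, likewise rose in MEF (0.57 and 0.40) and fell in wound-healing fibroblasts (0.78 and 0.72).

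Among cell cycle genes, the difference was called for 28 of 42 (66.7%, against 58.0% of all genes tested), 21 of them lower in wound-healing fibroblasts (50.0%, against 29.1%) and 7 higher. With library totals alone, 16 were lower and 13 higher. Cdk1, the mitotic kinase, rose by 0.42 in MEF and fell by 0.32 in wound-healing fibroblasts, or by 0.19 (edgeR adjusted p = 0.108) with library totals alone. Ccnd1, cyclin D1, rose in both (0.39 and 0.72). The median effect was 0.15 in MEF and −0.06 in wound-healing fibroblasts, and the latter became 0.07 with library totals alone. Of the 42, 7 were lower in wound-healing fibroblasts and higher in MEF (16.7%, against 8.65% of all genes tested). With library totals alone the 7 became 2, while over all genes this class went from 1242 to 699. Of 26 p53 targets and CDK inhibitors, 14 were higher and 4 lower in wound-healing fibroblasts (53.8 and 15.4%, against 28.8 and 30.2% of all genes tested), and 5 were higher and 9 lower in MEF (19.2 and 34.6%, against 26.6 and 28.3%). Trp53inp1, a stress protein, fell by 1.251 in MEF and rose by 1.03 in wound-healing fibroblasts, and Mdm2, which degrades p53, rose by 0.75 in wound-healing fibroblasts, with −0.32 in MEF. E6, carried by all 12 cultures, degrades the p53 protein, which RNA does not show.

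Some genes moved strongly in one type while the 95% interval of their effect in the other lay within 0.5 of 0 on the log2 scale, and the rule named 3 for each type and direction. In wound-healing fibroblasts, Crabp1, a retinoic acid binding protein, stood at 307, 316 and 298 CPM in WT and 19.96, 21.6 and 20.6 CPM in sgPrrx1 wound-healing fibroblasts, while MEF held it at 34.9, 32.5 and 27.8 CPM in WT and 39.96, 34.1 and 29.5 CPM in sgPrrx1 cultures. Its effect was −3.89 ± 0.12 in wound-healing fibroblasts and 0.12 (95% interval −0.11 to 0.35) in MEF, and the difference was −4.01 ± 0.15 (edgeR adjusted p = 4.18e-09). Ak5, an adenylate kinase, and Medag, an adipogenesis gene, fell by 4.73 and 3.93 there, against −0.05 and −0.30 in MEF. Anxa8, an annexin, and Zc3h12a, the RNase regnase-1, rose by 3.09 and 2.54 there, against −0.26 and −0.24 in MEF. Fxyd6, a regulator of the sodium pump, was at 0 in WT and at 0.0994, 0.128 and 0.132 CPM in sgPrrx1 wound-healing fibroblasts, at least 3.42-fold higher but still low, against 16.2 and 16.7 CPM in MEF. It reached the mean of 5 CPM asked for only through MEF.

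In MEF, Thbs2, thrombospondin 2, an antiangiogenic matrix protein, stood at 351, 331 and 271 CPM in WT MEF and 17.6, 15.5 and 12.8 CPM in sgPrrx1 MEF. In wound-healing fibroblasts it was more abundant, at 1696, 1728 and 1707 CPM in WT and 1758, 1779 and 1744 CPM in sgPrrx1 wound-healing fibroblasts. The effect in MEF was −4.38 ± 0.12 and that in wound-healing fibroblasts 0.04 (95% interval −0.19 to 0.28), a difference of 4.42 ± 0.16 (edgeR adjusted p = 2.75e-09). Serpina3g, a serpin of haematopoietic and interferon-treated cells, was at 3.72, 4.50 and 4.01 CPM in WT MEF and 0 in sgPrrx1 MEF, at least 98.5-fold lower, and at 10.2 and 10.7 CPM in the wound cultures. It reached the mean of 5 CPM asked for only through the wound cultures. Crot and Sri rose, by 2.05 and 1.88, and both lie in the stretch of chromosome 5 described with the figure of its genes. Son, a splicing cofactor, rose by 1.58 in MEF and by 0.35 in wound-healing fibroblasts, where its 95% interval was 0.22 to 0.49.

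Growth factors and their receptors fell more often than they rose. Of 39 tested, 25 were lower and 3 higher in MEF (64.1 and 7.69%, against 28.3 and 26.6% of all genes tested), and 23 were lower and 8 higher in wound-healing fibroblasts (59.0 and 20.5%, against 30.2 and 28.8%). Of the 39, 15 were lower in both types (38.5%, against 10.4%), and 31 had a called difference (79.5%, against 58.0%). The difference was lower in wound-healing fibroblasts for 15 and higher for 16 (38.5 and 41.0% of the 39, against 29.1 and 28.8%). Igf2 fell in wound-healing fibroblasts from 6.33, 12.9 and 7.01 CPM to 0.133, 0.0854 and 0 CPM, whereas in MEF it stood at 2.50, 3.52 and 5.66 and 5.06, 5.32 and 5.89 CPM and was not called (0.47), but was 0.91 (edgeR adjusted p = 0.0492) without WT MEF replicate 3. Vegfd, a lymphatic growth factor, fell by 0.72 and 2.41, and Pdgfb, the mitogen of mural cells, fell by 3.37 in MEF and rose by 1.28 in wound-healing fibroblasts. Kdr, seen above as the gene that carried the endothelial list, fell from 3.65, 3.51 and 3.60 to 0.317, 0.0719 and 0.265 CPM in MEF. In wound-healing fibroblasts it fell from 289, 292 and 295 to 139, 144 and 139 CPM, and the remaining endothelial markers were each at a mean of 5.47 CPM or below there. Ereg, an EGF receptor ligand, fell by 0.28 in MEF and rose by 1.91 in wound-healing fibroblasts.

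Transcription factors of position differed between types gene by gene. Of 35 Hox genes, 18 were higher (51.4%) and 7 lower in wound-healing fibroblasts, against 28.8 and 30.2% of all genes tested. With library totals alone these counts were 18 and 2. In MEF 8 were higher and 8 lower (22.9% each), below the 26.6 and 28.3% of all genes tested. Hoxa5 stood at 10.9, 10.6 and 11.5 CPM in WT MEF and 6.32, 7.16 and 8.40 CPM in sgPrrx1 MEF. Across the wound cultures it stood at 5.99, 5.40 and 5.75 CPM in WT and 12.02, 10.95 and 11.5 CPM in sgPrrx1 wound-healing fibroblasts, and the difference was 1.60 ± 0.14 (edgeR adjusted p = 2.18e-06). Hoxb9 went the other way, rising by 0.42 in MEF and falling by 0.54 in wound-healing fibroblasts. Hoxa11 rose from 0.273 to 6.10 CPM in wound-healing fibroblasts and was at most 0.0150 CPM on average in MEF. Of 49 other limb and positional factors, 10 were lower and 5 higher in both types (20.4 and 10.2%, against 10.4 and 7.36% of all genes tested). With upper-quartile scaling or limma-voom, 3 were higher in both. A difference was called for 34 of the 49 (69.4%, against 58.0%). Meis1, a cofactor of Hox proteins, fell by 0.98 and 1.32. En1, of dorsal scar-forming fibroblasts, had an effect of 0.40 in MEF and fell by 1.246 from 12.5 CPM in wound-healing fibroblasts. Gata4, of heart and visceral mesoderm, rose by 0.72 and 3.15.

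Among 19 transcription factors listed in the study as candidate master regulators of fibroblasts, chosen in the study in these fibroblast types and so not independent of them, 11 had a called difference (57.9%, against 58.0% of all genes tested). Klf4 rose by 0.44 in MEF and 1.61 in wound-healing fibroblasts, Tead4 by 0.91 and 1.01, and Fosl2 fell by 0.34 in MEF and rose by 0.99 in wound-healing fibroblasts. Jund varied widely between cultures of WT MEF, which stood at 3.62, 44.2 and 3.02 CPM against 75.4, 81.5 and 90.4 CPM in sgPrrx1 MEF, and its difference of −2.11 was not called but was −4.47 without WT MEF replicate 2 (edgeR adjusted p = 7.2e-09). Of 13 AP-1 genes, 4 were higher in both types (Fosl1, Jun, Junb and Atf3, 30.8% against 7.36% of all genes tested) and 3 lower in both (23.1%, against 10.4%), Fos and Maf among them. Fosl1, which is induced by growth factor signalling, rose from 77.7 to 132 CPM in MEF and from 36.8 to 113 CPM in wound-healing fibroblasts. The AP-1 letters TGANTCA were found in the promoters of 24 of 202 genes that were higher in wound-healing fibroblasts and lower in MEF by at least 2-fold each (11.9%), in 3 of 30 that went the other way (10.0%), in 6 of 40 higher in both, in 15 of 255 lower in both (5.88%) and in 530 of 11214 genes tested (4.73%). They were also found in 9 of the 30 interferon-stimulated genes with a promoter (30.0%).

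Imprinted growth genes gave a called difference for 15 of 17 (88.2%, against 58.0% of all genes tested), and 7 fell in both types (41.2%, against 10.4%). The maternally expressed transcripts Meg3, Rian and Mirg fell together, by 1.36, 1.50 and 1.36 in MEF and by 1.37, 2.19 and 1.21 in wound-healing fibroblasts. Dlk1, the paternally expressed gene of the same domain, did not follow them. It stood at 320.2, 326 and 298 CPM in WT and 350.4, 346 and 268 CPM in sgPrrx1 MEF, and rose in wound-healing fibroblasts from 68.5, 68.5 and 68.5 to 187, 188 and 187 CPM (difference 1.42 ± 0.12, edgeR adjusted p = 2.02e-06). Peg3, a zinc finger protein, fell by 2.69 in MEF and 0.56 in wound-healing fibroblasts.

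A run of neighbouring genes at the start of chromosome 5, noticed after their values had been seen, rose in MEF. The 12 genes from Cdk14 to Dmtf1 with a mean of at least 5 CPM (GRCm38.p6 chr5:4803384-9161806) were all higher in sgPrrx1 MEF, by 0.65 to 2.71 on the log2 scale and by at least 2-fold for 8, against 26.6 and 2.03% of all genes tested. In wound-healing fibroblasts 3 were higher and 4 lower (median −0.03), and the difference was called lower there for 10. The bounds of the run were set after its values were seen, and the rise in MEF did not stop at them. The 8 genes from Cdk6 to Akap9, before Cyp51 and Fzd1, were also all higher in sgPrrx1 MEF, by 0.42 to 1.14, and 7 of them were higher in wound-healing fibroblasts too (median 0.87 in MEF and 0.48 in wound-healing fibroblasts). Abcb1b, an efflux transporter of drugs, led the run and stood at 71.6, 71.4 and 63.4 CPM in WT MEF and 453, 460.2 and 434 CPM in sgPrrx1 MEF. In the wound cultures it stood at 44.5, 45.5 and 42.8 CPM in WT and 96.7, 97.8 and 97.3 CPM in sgPrrx1 wound-healing fibroblasts, so that it rose in both types, by 2.71 ± 0.056 and 1.14 ± 0.054. Crot, an enzyme that links fatty acids to carnitine in peroxisomes, stood at 33.4, 36.0 and 34.9 CPM in WT MEF and 142, 143 and 149 CPM in sgPrrx1 MEF, and at 70.3, 68.8 and 70.5 and 58.8, 55.7 and 56.2 CPM in the wound cultures. Sri, the calcium-binding protein sorcin, stood at 63.6, 66.1 and 62.3 CPM in WT MEF and 231, 235 and 243 CPM in sgPrrx1 MEF, and at 84.0, 86.6 and 80.9 and 80.8, 78.6 and 83.0 CPM in the wound cultures. Among windows of 15 such genes, overlapping windows here, that from Cldn12 to Cacna2d1 among them, shared the highest median effect in MEF (1.56), and the highest on any other chromosome was 0.62, on chromosome 13. Cldn12, Steap2, Dbf4 and Slc25a40 of this run varied widely between cultures of a group.

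**Figure D5:**
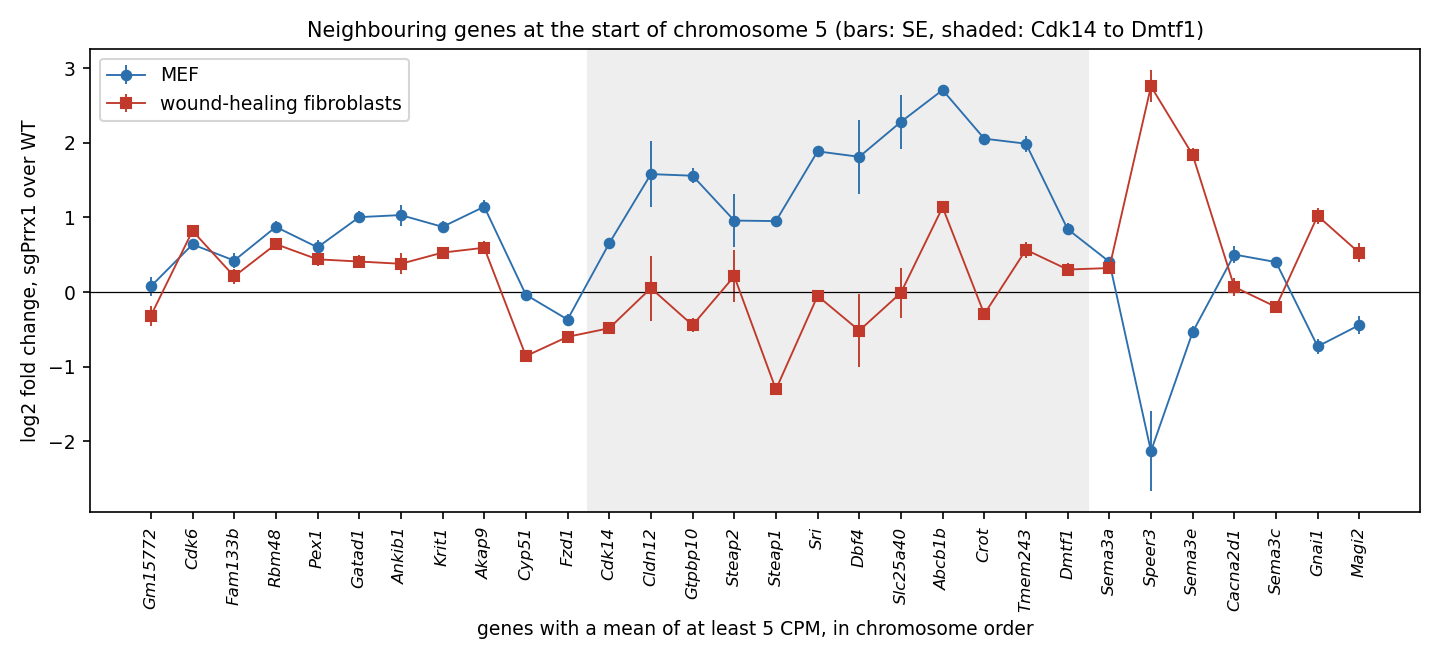
The sgPrrx1 effect (y axis, log2 fold change over WT, bars are standard errors) is drawn for genes with a mean of at least 5 CPM in their order along the start of chromosome 5, with the 12 genes from Cdk14 to Dmtf1 shaded. In MEF (circles) the shaded genes lie between 0.65 and 2.71, while in wound-healing fibroblasts (squares) their median is −0.03. The genes from Cdk6 to Akap9 lie above 0 in both types.

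Of the genes tested on the Y chromosome, Ddx3y moved apart from the others, as noticed after its values had been seen. Ddx3y, an RNA helicase, stood at 20.7, 20.1 and 22.4 CPM in WT and 1.93, 1.95 and 2.17 CPM in sgPrrx1 wound-healing fibroblasts, a fall of 3.39 ± 0.10 (edgeR adjusted p = 4.01e-10), and at 14.5, 15.1 and 17.1 CPM in WT MEF and 14.98, 17.2 and 18.7 CPM in sgPrrx1 MEF. Kdm5d, Uty and Eif2s3y had effects of 0.28, 0.18 and −0.09 in the same wound-healing fibroblasts.

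MMTV-CAF, fibroblasts from breast tumours of MMTV-PyMT mice with their own WT and sgPrrx1 cultures, gave a further set of effects. In them 32.8% of 15093 genes were lower and 32.7% higher in sgPrrx1 cultures. Of the 14354 genes of the comparison above, 33.5% were lower and 33.0% higher. Of the 368 genes lower in both other types by at least 2-fold, 179 (48.6%) were lower and 97 (26.4%) higher in MMTV-CAF. Aspn and Igf1 fell there by 6.92 and 3.17, and Itga11 had an effect of −0.06. Of the 275 genes higher in wound-healing fibroblasts and lower in MEF by at least 2-fold each, 127 (46.2%) were lower and 60 (21.8%) higher in MMTV-CAF. Of the 35 that went the other way by at least 2-fold each, 13 (37.1%) were lower and 11 (31.4%) higher there. Of the 52 higher in both other types by at least 2-fold, 13 (25.0%) were lower and 16 (30.8%) higher. Among genes of any size of effect, 48.0% of the 1489 lower in both were lower and 30.2% higher in MMTV-CAF, and of the 1056 higher in both 40.2% were lower and 34.0% higher. Of the 1326 higher in wound-healing fibroblasts and lower in MEF, 51.9% were lower and 25.2% higher, and of the 1242 that went the other way 24.3% were lower and 50.3% higher. Serpine2 and C3 rose in MMTV-CAF by 1.32 and 4.77, as in wound-healing fibroblasts, while Gdf10 fell by 3.18, as in MEF. Perp, higher in both other types, was at 0 in all 3 sgPrrx1 MMTV-CAF cultures.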

How the data were processed

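RNA from the 12 cultures had been sequenced by the authors as 100-base paired-end reads on a HiSeq 2500, from TruSeq RNA v2 libraries. Per the labels and the methods of the study, Trimmomatic trimmed the reads, STAR placed them on mm10 and HTSeq counted them per gene. The authors deposited raw read counts per gene in 1 table per cell type, and the strand setting of the counting is not given in the sources used here. The methods of the study name a batch correction by ComBat-seq after describing mouse and human samples, and do not say whether it was applied to the counts deposited here. Column names in the wound table give genotype and number, and 0 columns were without a sample. No p-values of the authors were used.

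The 24447 genes in both tables were joined, and 14354 passed edgeR's filter on low counts over the 4 groups. edgeR 4.0.16 (R 4.3.3) quasi-likelihood tests with TMM scaling gave the effect in each type and their difference, adjusted by Benjamini-Hochberg over all genes tested. A called gene has an adjusted p under 0.05, and a gene that is lower or higher in both types was called in both. SE is the log2 fold change over the root of F. Genes at 0 in a group are given bounds from a floor of 3 counts per library, and intervals at 95% come from the same fit. MMTV-CAF effects came from 1 fit of all 21 cultures, the 3 KI_PRRX1 MEF cultures included.

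Named genes were Prrx1, Prrx2, list members, and genes with a mean of at least 5 CPM and no overlap of cultures: the 6 with the largest smaller effect in each shared or opposite direction, and 3 for each type and direction with the other type's interval within 0.5 of 0. Members and lists were chosen with earlier results of these data known. Promoters and gene positions came from RefSeq (GRCm38.p6, the assembly of mm10). Alternatives were RLE, upper-quartile and library-total scaling, DESeq2 1.42.0, limma 3.58.1 (voom), other filters on low counts, a replicate block, all 21 cultures, counts divided by 2, and leaving out each culture. The tests were also run on simulated data, with 200 of 14060 genes changed and 1 spread per gene for both types. There 3.68% of the differences called by edgeR, 16% by DESeq2 and 2.99% by limma-voom were on genes set to have none. Far more genes were called in the cultures, and their spread differed between types, so the simulation does not check the tests in this setting. Some genes counted within lists are not reported here by name.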

Additional observations from a re-analysis of the deposited data

Results flagged for a closer look

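Every value here was singled out because the sgPrrx1 effect differed between MEF and wound-healing fibroblasts in edgeR's test of the difference itself. The difference was called for 8323 genes, for 2778 of them at 2-fold or more, and 2568 genes changed in opposite directions. Prrx1 itself had a difference of −0.60 on the log2 scale, with the larger fall in wound-healing fibroblasts.

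Among the genes that fell in wound-healing fibroblasts and rose in MEF, the difference was −5.80 for Aqp5, −3.57 for Sema7a, −3.70 for Il1rl1, −2.89 for B3gnt3, −4.95 for Wnt7b and −2.99 for Itga6. Among those that rose in wound-healing fibroblasts and fell in MEF, it was 12.40 for Rgs4, 12.91 for Gdf10, 9.44 for C3, 5.02 for Serpine2 and 4.89 for Speer3, and all of these but Serpine2 were low in MEF (WT means of at most 3.55 CPM). Ms4a4d, at 0 in all sgPrrx1 MEF cultures, had a fitted difference of 11.06, which depends on the prior count and is no bound.

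Of genes with a strong effect in wound-healing fibroblasts and a small one in MEF, Ak5 differed by −4.68, Medag by −3.63, Crabp1 by −4.01, Anxa8 by 3.35 and Zc3h12a by 2.78. Of those with a strong effect in MEF, Thbs2 differed by 4.42, Irf7 by 3.45, Crot by −2.35, Sri by −1.94 and Son by −1.23. The fitted differences of Fxyd6 (6.24), at 0 in WT wound-healing fibroblasts, and Serpina3g (11.43), at 0 in sgPrrx1 MEF, likewise depend on the prior count.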

How the results depend on the processing

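The number of genes with a called difference ran from 7654 to 8784 over the 10 alternatives of scaling, test, filter, samples and counts, against 8323. With at least 1 count asked for over all cultures, it was 8242 of 17732 genes tested, which is not most of them. A test against a 2-fold difference (edgeR's glmTreat) called 1400, since it asks for more than a difference from 0. Leaving out 1 culture at a time gave 7647 to 8873 differences, 2632 to 3049 of at least 2-fold, 2200 to 2856 genes with the same direction and 2188 to 2965 with opposite directions. Library totals alone left the counts close (8020 differences) but raised the share higher in wound-healing fibroblasts from 49.8 to 62.2%, and took the genes that fell there and rose in MEF from 1242 to 699. Asking for 10 counts in every culture, which drops genes near 0 in any group, took the genes lower in both by at least 2-fold from 368 to 196, those higher in both from 52 to 22, and the opposite pairs from 275 to 132 and from 35 to 15. It also moved the median difference of fibrillar collagens from 0.24 to −0.59 and of small leucine-rich proteoglycans from −0.45 to 0.58. Deviations of same-numbered cultures of a type correlated weakly or not at all (r of 0.0897, −0.0198 and 0.16 in MEF, and −0.0415, −0.0173 and −0.0374 in wound-healing fibroblasts). MEF replicates 1 and 3 had the culture of their own number as best partner, and MEF replicate 2 and the wound cultures did not. The numbers were not read as pairs. A replicate block gave 8719 differences, 2725 of at least 2-fold, 2814 with the same direction and 2965 with opposite directions. Of the single-gene values printed, none changed sign with a call under these alternatives. Differences called only under some alternatives were those of Aspn, Bnip3, Cxcl12, Epb41l4b, Jund and Prl2c2, and Igf1, Meis1, Eif2s3y, Ccl20 and Hoxa11 lost theirs under at least 1. Where calls moved, the cause was not tested.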

Other observations

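Among adipogenic genes, Pparg, the nuclear receptor that drives fat cell formation, stood at 2.66, 2.21 and 3.04 CPM in WT MEF and 3.67, 3.94 and 3.65 CPM in sgPrrx1 MEF, and at 4.94, 4.93 and 5.64 and 3.25, 3.06 and 3.20 CPM in the wound cultures. Cebpa, its partner in that programme, had effects of 1.30 in MEF and −0.87 in wound-healing fibroblasts. Lpl, lipoprotein lipase, fell in both, by 1.19 and 2.36. Of 18 adipogenic genes tested, 4 were lower in both (22.2%, against 10.4% of all genes tested). A further 3 were lower in wound-healing fibroblasts and higher in MEF (16.7%, against 8.65%), and 3 went the other way (16.7%, against 9.24%). With RLE scaling, 1 was higher in wound-healing fibroblasts and lower in MEF.

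Members of the Wnt pathway were lower in MEF for 19 of 28 (67.9%, against 28.3% of all genes tested). In wound-healing fibroblasts 11 were lower (39.3%, against 30.2%) and 8 higher (28.6%, near the 28.8% of all genes tested). Wnt5a, a ligand known mostly for signalling without beta-catenin, fell by 1.09 in MEF and rose by 0.93 in wound-healing fibroblasts. Of the 28, 9 were lower in both types (32.1%, against 10.4% of all genes tested). Another 6 were higher in wound-healing fibroblasts and lower in MEF (21.4%, against 9.24%). Sfrp2, Dkk2, Dkk3, Rspo2 and Rspo3, secreted regulators of the pathway, were among the 9.

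Medians over whole chromosomes also differed, as noticed after the values had been seen. Over 328 genes of the X chromosome the median effect was −0.37 in wound-healing fibroblasts and 0.08 in MEF, and over 352 genes of chromosome 13 it was −0.35 and 0.13. Over 675 genes of chromosome 5 it was 0.19 and −0.16. In wound-healing fibroblasts 195 X-linked genes were lower and 33 higher, against 30.2 and 28.8% of all genes tested.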
